A study of Mus musculus with 24 samples.

Results

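The transcripts described are those of 40 genes of glycolysis and glycogen metabolism, from glucose transporters and hexokinases through the enzymes of glycolysis and lactate formation to those that build and break down glycogen. A gene entered when a probe annotated to it had a detection p-value under 0.05 on at least 3 of 24 arrays. Of the 40 genes, 36 had an annotated probe and 33 had a probe that passed, among 11317 genes that passed in all. Probes for Pgk1, Pgm2 and Ppp1r3a did not pass, and Gpi1, Pfkfb1, Pgam1 and Eno1 were not analysed here. Aldoc, the brain aldolase, passed through 3 day 14 denervated arrays and was detected on no other array.

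The muscle was triceps surae, the calf muscle group, of mice of 6 months on a C57/Bl6 background. The genotypes were wild type and a knockout of MuRF1, the product of Trim63, which tags muscle proteins with ubiquitin. In each genotype, muscle was taken 3 or 14 days after a stretch of 1 sciatic nerve was removed, and control muscle came from littermates that had no operation, so an effect of surgery cannot be told apart from that of nerve loss. Each of the 8 groups of genotype, treatment and day held 3 samples, read on 1-colour Illumina bead arrays. Nothing in the labels ties each sample to a mouse of its own, so the p-values reflect only how these samples spread, and that spread may be technical.

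Skeletal muscle stores glucose as glycogen and burns it through glycolysis during contraction. Glucose enters by transporters that move to the surface after insulin or contraction, is trapped as a phosphate by hexokinase, and either joins glycogen or passes down the pathway to pyruvate and lactate. Phosphorylase kinase switches on glycogen phosphorylase when calcium rises in a contracting fibre, which makes glycogen breakdown answer to nerve activity. Fast glycolytic fibres, which prevail in the calf muscles of the mouse, carry high levels of these enzymes.

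Values are background-corrected, quantile-normalized intensities on the log2 scale, and a difference of 1 is a doubling of intensity. A gene was called when its adjusted p (limma across all genes, Benjamini-Hochberg) was under 0.05. Between 15532 and 18755 of 46632 probes were detected per array. Among the day 3 arrays, replicates 2 and 3 of denervated knockout muscle stood apart with 18434 and 18520 detected probes, against at most 17055 on the others. For the 33 genes, results of day 3 knockout muscle are given with and without both. Without both, a lone denervated knockout sample of day 3 is left. It is then taken to vary like the other groups, so a call there, kept or lost, rests on that sample. Trim63 read 9.05 to 11.37 on wild type arrays and 4.83 to 5.86 on knockout arrays, so the arrays matched their genotype labels. All 10 markers of skeletal muscle fibres were detected on all arrays. The summed linear intensity of 13 kept leukocyte markers out of 17 was 9315 to 9946 in wild type control and 32380 to 38740 in wild type denervated muscle of day 3, with Ptprc, Cd68, Csf1r and Itgam not kept.

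Denervation lowered most of the enzymes that changed. In wild type muscle of day 3, 17 of 33 genes fell and 2 rose, 57.6% called against 37.5% of all genes. In wild type muscle of day 14, 19 fell and 5 rose, 72.7% against 41.5%. In knockout muscle, 10 fell and 5 rose on day 3 (45.5% against 35.8% of all genes), and 19 fell and 1 rose on day 14 (60.6% against 36.7%). The share of all genes called lower was 17.5% and 18.6% in wild type muscle of days 3 and 14 and 15.6% and 17.7% in knockout muscle, and the share called higher was 20% and 22.9% and 20.2% and 19%. The median log2 change of the 33 genes was -0.43 and -0.56 in wild type and -0.07 and -0.54 in knockout muscle, beside medians of all genes between 0.01 and 0.05.

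All 3 denervated samples lay below all 3 controls for 19 and 20 of 33 genes in wild type muscle of days 3 and 14, where 24% and 23.5% of all genes did so. The same held for 11 and 20 genes in knockout muscle, against 16.9% and 24.9% of all genes. All 3 denervated samples lay above the controls for 3 and 8 genes in wild type muscle of days 3 and 14, against 26.9% and 29.6% of all genes, and for 4 and 1 in knockout muscle, against 21.3% and 26.8%. In bulk muscle, fewer fibres and less RNA per fibre cannot be told apart. With arrays centred on their medians in place of quantile normalization, the median of all genes moved up by 0.178 in wild type and 0.412 in knockout muscle of day 3, and the knockout split of day 3 became 12 higher and 7 lower. Without the 2 arrays that stood apart, knockout muscle of day 3 keeps a lone denervated sample, so only sizes of change are compared next.

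For the 10 genes, named below, that fell in all 4 comparisons, the knockout changes of day 3 differed in size without the 2 arrays. The log2 change of Phkg1 went from -0.73 to -1.26, that of Pygm from -0.77 to -1.15, that of Eno3 from -0.97 to -1.32, that of Gpd1 from -1.001 to -1.28 and that of Ldha from -0.62 to -0.86. Fbp2 went from -1.50 to -1.39, Tpi1 from -1.47 to -1.56, Ldhb from -2.26 to -2.15, Slc2a4 from -1.0 to -0.96 and Ppp1r3c from -1.04 to -1.20. All 10 were still falls, though from a lone denervated sample set against the controls. Pfkfb2 and Phkb, not called in knockout muscle of day 3 with all arrays, changed by -0.52 and -0.75 without the 2 arrays.

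**Figure D1:**
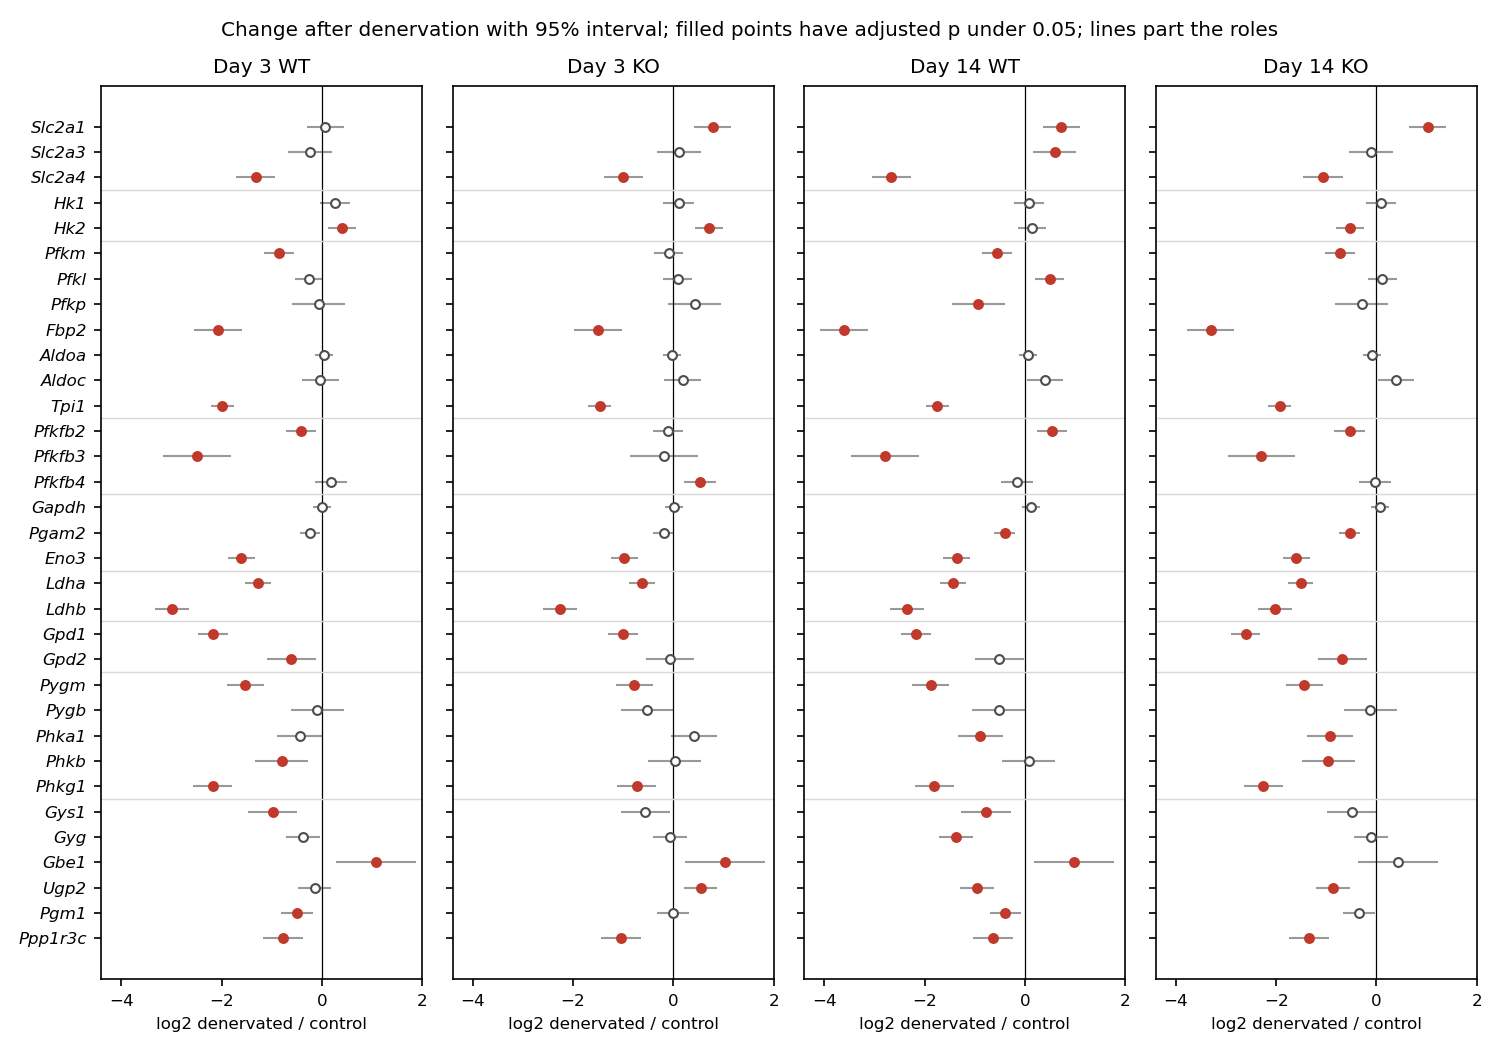
Log2 change from control to denervated muscle (x axis) of each of the 33 genes (y axis, grouped by role), with 95% intervals, for wild type (WT) and knockout (KO) muscle of days 3 and 14. Filled points, called at an adjusted p under 0.05, lie mostly left of 0, with the changes spanning -3.60 for Fbp2 to 1.08 for Gbe1.

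Of the 33 genes, 10 (30.3%) fell in both genotypes on both days, as 5.81% of all genes did, and none rose in all 4 comparisons, as 6.76% of all genes did. The 4 comparisons use separate samples. The 10 were the glucose transporter Slc2a4, the glycolytic enzymes Fbp2, Tpi1 and Eno3, both lactate dehydrogenases Ldha and Ldhb, Gpd1 of the glycerol phosphate shuttle, Pygm and Phkg1 of glycogen breakdown, and Ppp1r3c, which tethers a phosphatase to glycogen. Aldoa, Aldoc, Gapdh, Hk1 and Pygb were called in none of the 4. Hk2, Pfkfb2 and Ugp2 were called higher in at least 1 comparison and lower in another.

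Promoter sequences show where the 5-letter hypoxia response core lies in 3 of those 10 genes. The letters ACGTG, on either strand, occurred in 51.2% of 43 promoter windows of 30 matched genes and in 19.6% of 32851 windows of all mouse genes. By gene, 18 of the 30 held them in any window, and so did 4 of 8 matched genes that fell in all 4 comparisons. Some genes have several windows, so these gene counts cannot be set against the share of windows. The share of all genes was not counted. The palindrome CACGTG, each copy of which holds the core on both strands, occurred in 16.3% and 7.15%. The windows run from 250 bases before to 50 after a RefSeq gene start on build GRCm38.p6. Those of Ldha (chr7:46845554-46845853, + strand), Ppp1r3c (chr19:36736555-36736854, - strand) and Fbp2 (chr13:62858351-62858650, - strand) are shown. They were picked for holding the most copies of ACGTG among windows of the 8 matched genes that fell in all 4 comparisons. These 3 windows also hold CACGTG. Each is written 5′ to 3′ on the gene's strand, and capitals mark ACGTG on either strand.
Ldha: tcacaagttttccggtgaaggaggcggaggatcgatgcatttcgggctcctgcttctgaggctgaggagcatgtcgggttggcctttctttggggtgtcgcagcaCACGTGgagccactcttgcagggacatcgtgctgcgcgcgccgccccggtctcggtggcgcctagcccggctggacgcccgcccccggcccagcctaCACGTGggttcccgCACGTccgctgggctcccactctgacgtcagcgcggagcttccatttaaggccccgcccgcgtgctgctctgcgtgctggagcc
Ppp1r3c: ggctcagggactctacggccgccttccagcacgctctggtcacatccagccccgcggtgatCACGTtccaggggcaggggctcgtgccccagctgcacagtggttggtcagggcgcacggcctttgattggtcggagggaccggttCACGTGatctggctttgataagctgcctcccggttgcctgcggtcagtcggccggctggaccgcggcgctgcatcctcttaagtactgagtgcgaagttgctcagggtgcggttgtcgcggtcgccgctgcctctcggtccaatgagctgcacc
Fbp2: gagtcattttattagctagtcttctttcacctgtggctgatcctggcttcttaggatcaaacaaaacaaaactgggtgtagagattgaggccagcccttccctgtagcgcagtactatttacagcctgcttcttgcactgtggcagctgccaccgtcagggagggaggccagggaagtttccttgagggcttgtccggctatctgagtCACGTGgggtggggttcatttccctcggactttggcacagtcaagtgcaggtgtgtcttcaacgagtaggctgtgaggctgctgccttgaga
Counted on both strands, the core occurred 5 times in the Ldha window, 3 times in that of Ppp1r3c and 2 times in that of Fbp2. The E-box CANNTG occurred in 74.4% of the 43 windows and 72.3% of all windows. CAGCTG occurred in 25.6% and 16.3% of them, the MEF2 motif in 2.33% and 3.19%, and the FoxO core GTAAACA in 2.33% and 3.65%. A match describes letters in the window and is no evidence of binding.

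Glucose transporters moved in opposite directions. Slc2a4, the insulin- and contraction-responsive transporter GLUT4, read 11.49, 11.33 and 11.49 in wild type controls of day 3 and 10.54, 10.06 and 9.76 after denervation. On day 14 the same groups read 12.55, 12.49 and 12.002 and 9.60, 9.60 and 9.85. The denervated samples lay below the controls on both days, by 2.49-fold (log2 -1.32 ± 0.19, SE; adjusted p = 9.79e-06) and 6.35-fold (-2.67 ± 0.19; adjusted p = 3.90e-10).

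In knockout muscle Slc2a4 read 11.53, 11.31 and 11.83 in controls and 10.60, 10.25 and 10.82 after denervation on day 3, and 11.26, 11.03 and 11.18 and 10.08, 10.12 and 10.08 on day 14. The groups did not overlap on either day, and the falls were 2.00-fold and 2.09-fold. Slc2a1, the basal transporter GLUT1, read 8.99, 8.44 and 9.33 in control and 9.98, 9.54 and 9.42 in denervated wild type muscle of day 14. It read 9.44, 9.42 and 9.20 and 10.39, 10.34 and 10.42 in knockout muscle of that day. It rose 1.65-fold (adjusted p = 0.00214) and 2.04-fold (adjusted p = 9.87e-05).

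On day 3, Slc2a1 rose in knockout muscle from 8.75, 8.89 and 8.95 to 9.45, 9.71 and 9.79, 1.73-fold with an adjusted p of 0.00143. In wild type muscle it read 8.97, 9.03 and 8.87 and 9.18, 8.90 and 9.02, groups that overlapped (log2 0.07 ± 0.18, 95% interval -0.29 to 0.44). Without the 2 arrays that stood apart, the knockout change of day 3 was 0.58 with an adjusted p of 0.123. Slc2a3, the transporter GLUT3, was called in wild type muscle of day 14 only, with 7.57, 7.25 and 7.93 in controls and 7.95, 8.33 and 8.25 after denervation. That rise of 1.51-fold missed the threshold without any 1 of 4 of its 6 arrays (adjusted p up to 0.151). Leukocytes carry GLUT1 and GLUT3. The summed leukocyte markers on day 14 were 7743 to 10050 in control and 11250 to 19890 in denervated wild type muscle. In knockout muscle they were 6485 to 7497 and 19630 to 22990. Of 13 kept markers, 4 and 11 were called higher in wild type and knockout muscle of day 14. On day 3, 12 and 3 were called higher. In wild type muscle of that day Slc2a1 and Slc2a3 changed by 0.07 and -0.24. The part of leukocytes in these changes was not tested.

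**Figure D2:**
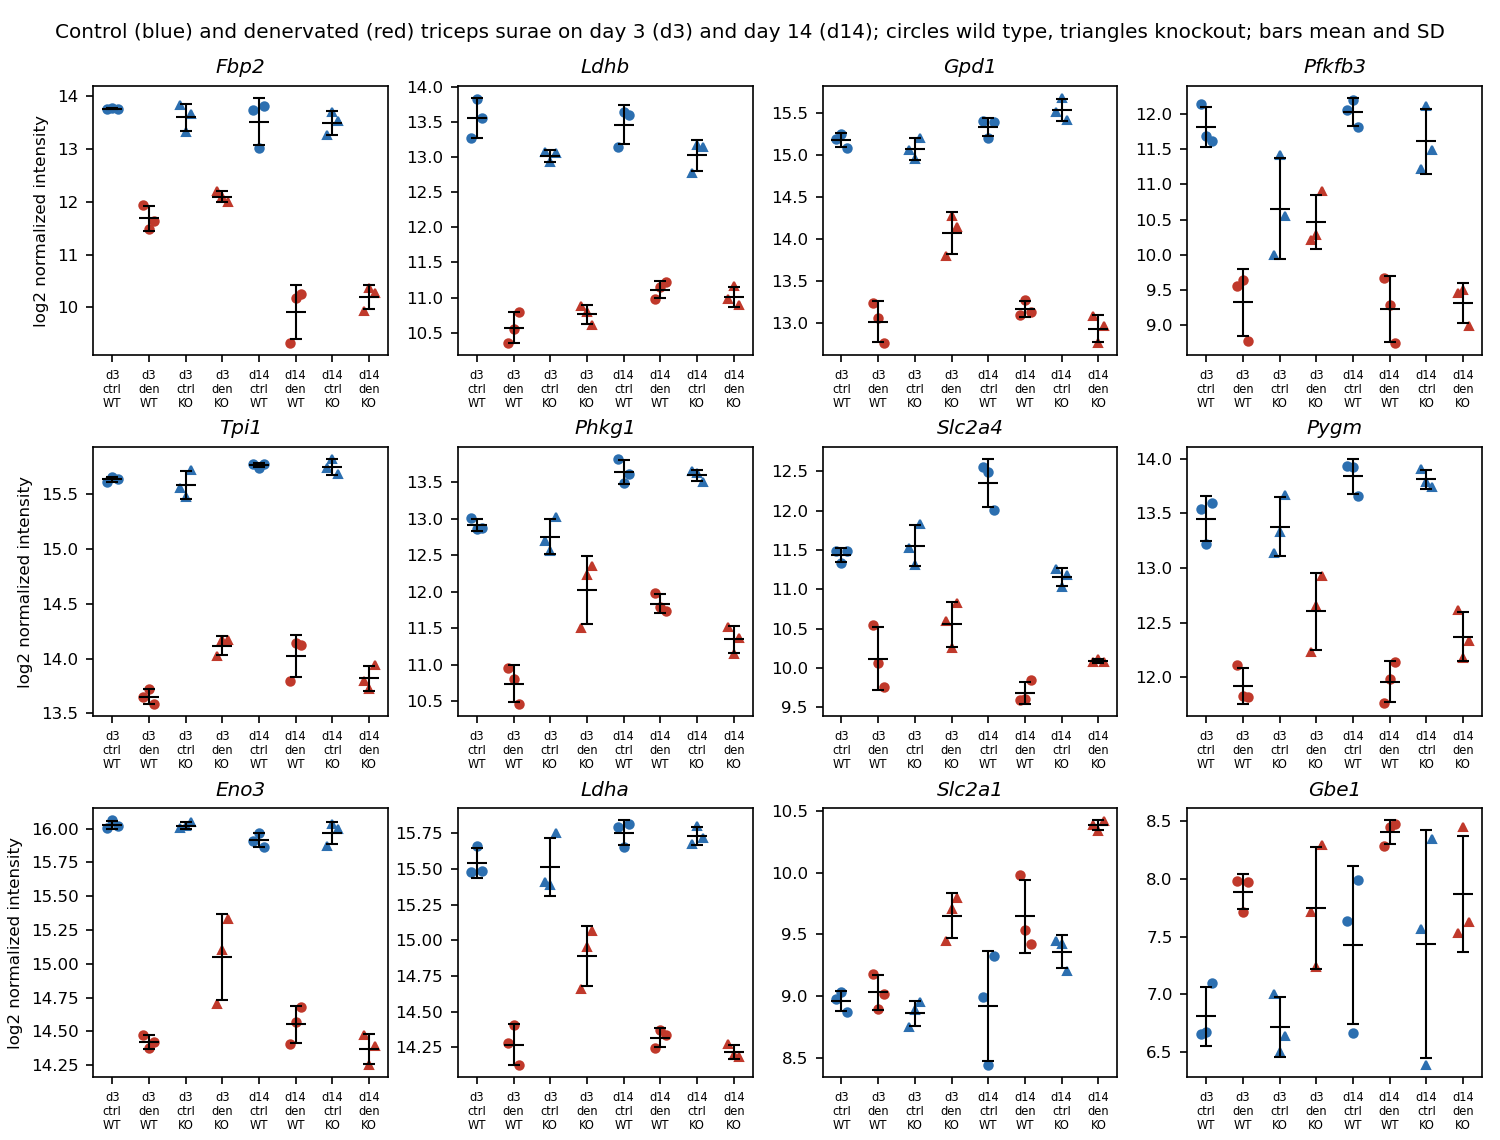
Log2 normalized intensity (y axis) of 12 genes in each sample of the 8 groups (x axis), with the mean and SD of the 3 samples. Of the 10 genes that fell throughout, 9 are plotted here, and their denervated samples (red) lie below the controls (blue) in all 4 pairs of groups. The 3 denervated samples of Fbp2 read 9.32 to 10.25 on day 14 in wild type muscle.

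Hk2, the hexokinase that prevails in muscle, was called higher on day 3 in both genotypes. It read 13.95, 14.03 and 14.08 in control and 14.61, 14.41 and 14.23 in denervated wild type muscle of day 3, and 13.97, 13.92 and 14.12 and 14.41, 14.78 and 14.94 in knockout muscle. The rises were 1.32-fold and 1.63-fold, with adjusted p-values of 0.0230 and 2.97e-04. On day 14, Hk2 read 14.05, 14.16 and 14.13 and 14.26, 14.34 and 14.17 in wild type muscle, not called, and 14.63, 14.40 and 14.44 and 14.07, 13.80 and 14.02 in knockout muscle, where it fell 1.44-fold (adjusted p = 0.00365). The test of the change between days did not call Hk2 in wild type muscle (log2 -0.25 ± 0.19; adjusted p = 0.409). The wild type rise of day 3 missed the threshold without any 1 of 4 of its 6 arrays (adjusted p up to 0.123), and the knockout rise was 0.41 with an adjusted p of 0.0961 without the 2 arrays that stood apart. Hk1, the form found in most tissues, was called in none of the 4 comparisons, with changes of 0.08 to 0.27.

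Of the 7 genes of upper glycolysis, Fbp2 and Tpi1 fell in all 4 comparisons. Fbp2, the muscle fructose bisphosphatase that runs against the glycolytic direction, had the largest fall among the 33 genes on day 14, as Ldhb had on day 3, by the probes used. It read 13.75, 13.77 and 13.76 in wild type controls of day 3 and 11.95, 11.49 and 11.64 after denervation, and 13.73, 13.01 and 13.81 and 9.32, 10.18 and 10.25 on day 14. The falls were 4.20-fold (log2 -2.07 ± 0.23; adjusted p = 3.17e-07) and 12.1-fold (-3.60 ± 0.23; adjusted p = 7.64e-11). In knockout muscle Fbp2 read 13.83, 13.32 and 13.66 and 12.21, 12.08 and 12.001 on day 3 and 13.26, 13.71 and 13.53 and 9.94, 10.37 and 10.27 on day 14, falls of 2.83-fold and 9.89-fold. Denervated samples lay below controls in every pair of groups.

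Triose phosphate isomerase, Tpi1, which interconverts the 2 triose phosphates, read 15.61, 15.65 and 15.64 in wild type controls of day 3 and 13.65, 13.72 and 13.59 after denervation, and 15.78, 15.74 and 15.77 and 13.80, 14.14 and 14.12 on day 14. The knockout groups read 15.56, 15.47 and 15.72, then 14.02, 14.17 and 14.17, on day 3 and 15.74, 15.82 and 15.68, then 13.80, 13.72 and 13.94, on day 14. The falls were 3.96-fold and 3.36-fold in wild type and 2.76-fold and 3.81-fold in knockout muscle, with adjusted p-values of at most 1.74e-09. A second Tpi1 probe gave log2 changes of -1.46, -1.20, -1.83 and -1.41 in wild type and knockout muscle of day 3 and then of day 14.

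The 3 phosphofructokinases were Pfkm, Pfkl and Pfkp. Pfkm, the muscle form, read 15.87, 15.95 and 15.96 in wild type controls of day 3 and 15.32, 15.06 and 14.84 after denervation, and 15.97, 15.89 and 15.87 and 15.33, 15.40 and 15.33 on day 14. It fell 1.80-fold and 1.48-fold (adjusted p = 6.33e-05 and 0.00298). Knockout muscle read 15.68, 15.67 and 15.95 and 15.48, 15.65 and 15.88 on day 3, groups that overlapped, and 16.05, 15.91 and 15.94 and 15.43, 14.93 and 15.35 on day 14, a fall of 1.65-fold. The size of these falls is uncertain, because the probe reached 99.6% of the raw intensity of the brightest probe on its array. A second Pfkm probe, which stayed at or below 45.3%, gave log2 changes of -1.73 and -3.94 in wild type muscle of days 3 and 14 and of -1.14 and -2.34 in knockout muscle, all 4 called (adjusted p over all probes of at most 0.00525).

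Pfkl, named for liver, was called in wild type muscle of day 14 only, where it rose from 9.16, 9.21 and 9.40 to 9.48, 9.90 and 9.87, 1.41-fold with an adjusted p of 0.00591. In the same muscle Pfkp, named for platelets, fell from 7.29, 6.90 and 7.52 to 5.86, 6.84 and 6.21, 1.91-fold with an adjusted p of 0.00551. Whether the isoforms' changes differ from each other was not tested. Aldoa, the muscle aldolase, was not called, with changes of -0.08 to 0.07, and Aldoc gave no fold because it was at or below background.

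The bifunctional enzymes that make and remove the allosteric activator of phosphofructokinase behaved unlike one another. Pfkfb3, the form with the highest kinase activity, read 12.13, 11.69 and 11.61 in wild type controls of day 3 and 9.56, 9.64 and 8.78 after denervation, and 12.06, 12.20 and 11.81 and 9.67, 9.29 and 8.75 on day 14. It fell 5.59-fold (log2 -2.48 ± 0.32; adjusted p = 3.13e-06) and 6.91-fold (-2.79 ± 0.32; adjusted p = 5.70e-07). In knockout muscle of day 3 the controls spread over 9.99, 11.42 and 10.56 and overlapped denervated values of 10.21, 10.29 and 10.91. On day 14 the knockout groups read 11.22, 12.12 and 11.49 and 9.47, 9.50 and 8.99, a fall of 4.90-fold.

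Pfkfb2, the form abundant in heart, fell in wild type muscle of day 3 from 8.98, 9.36 and 9.20 to 8.75, 8.85 and 8.71 and rose on day 14 from 9.31, 9.22 and 9.36 to 9.93, 9.77 and 9.83. In knockout muscle it was not called on day 3 (9.08, 9.09 and 9.20 in controls, 8.60, 9.15 and 9.28 denervated) and fell on day 14 from 9.74, 9.84 and 9.87 to 9.46, 9.15 and 9.23. The sizes were 1.33-fold, 1.46-fold and 1.45-fold, with adjusted p-values of 0.0292, 0.00412 and 0.00585. The day 3 fall missed the threshold without any 1 of 4 of its 6 arrays (adjusted p up to 0.132) and turned to 0.0192 (adjusted p = 0.925) as a mean of both Pfkfb2 probes. Pfkfb4 was called in knockout muscle of day 3 only, higher by 1.44-fold (11.34, 11.80 and 11.75 in controls and 11.99, 12.22 and 12.28 denervated), but with control knockout replicate 1 left out it missed the threshold (adjusted p = 0.0780). Without the 2 arrays that stood apart the Pfkfb4 change was 0.36 with an adjusted p of 0.301.

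In lower glycolysis the muscle enolase Eno3 fell in all 4 comparisons. Its probe and those of Pgam2 and Gapdh read near the top of the scale in control muscle, so their changes are not ranked. Eno3 read 16.001, 16.06 and 16.02 in wild type controls of day 3 and 14.48, 14.37 and 14.42 after denervation, and 15.91, 15.97 and 15.87 and 14.41, 14.57 and 14.68 on day 14, falls of 3.04-fold and 2.57-fold (adjusted p = 2.84e-09 and 2.56e-08). Knockout muscle read 16.001, 16.02 and 16.05 and 14.70, 15.10 and 15.33 on day 3 and 15.87, 16.03 and 15.996 and 14.47, 14.25 and 14.39 on day 14, falls of 1.97-fold and 3.02-fold. No denervated sample reached the control range. Pgam2, the muscle phosphoglycerate mutase, fell on day 14 in both genotypes (1.32-fold and 1.45-fold) and was not called on day 3. Gapdh was called in none of the 4 comparisons, with log2 changes of at most 0.13.

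Both lactate dehydrogenase subunits fell in all 4 comparisons. Ldha, the subunit of fast muscle, read 15.48, 15.66 and 15.49 in wild type controls of day 3 and 14.28, 14.41 and 14.13 after denervation, and 15.79, 15.65 and 15.81 and 14.25, 14.37 and 14.33 on day 14. Its knockout values were 15.41, 15.39 and 15.75 and 14.66, 14.95 and 15.07 on day 3 and 15.68, 15.80 and 15.72 and 14.28, 14.20 and 14.18 on day 14. The falls were 2.41-fold and 2.71-fold in wild type and 1.54-fold and 2.85-fold in knockout muscle, with adjusted p-values of at most 4.88e-04.

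Ldhb, the subunit of heart and oxidative fibres, read 13.27, 13.84 and 13.57 in wild type controls of day 3 and 10.35, 10.56 and 10.79 after denervation, and 13.15, 13.64 and 13.61 and 10.98, 11.14 and 11.21 on day 14. In knockout muscle the values were 13.08, 12.93 and 13.06 and 10.88, 10.80 and 10.61 on day 3 and 12.77, 13.17 and 13.14 and 10.97, 11.16 and 10.89 on day 14. The falls were 7.96-fold and 5.10-fold in wild type (log2 -2.99 ± 0.16 and -2.35 ± 0.16) and 4.80-fold and 4.05-fold in knockout muscle, all with adjusted p-values of at most 4.40e-09. A second Ldhb probe gave log2 changes of -1.18 and -0.92 in wild type and -0.28 and -1.48 in knockout muscle of days 3 and 14, and that of knockout muscle of day 3 was not called (adjusted p over all probes = 0.598).

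Of the glycerol phosphate shuttle, Gpd1, the cytosolic dehydrogenase, read 15.19, 15.25 and 15.09 in wild type controls of day 3 and 13.23, 13.05 and 12.75 after denervation, and 15.41, 15.21 and 15.39 and 13.09, 13.27 and 13.13 on day 14. In knockout muscle it read 15.06, 14.95 and 15.21 and 13.79, 14.28 and 14.14 on day 3 and 15.52, 15.68 and 15.42 and 13.07, 12.75 and 12.96 on day 14. The falls were 4.48-fold and 4.50-fold in wild type and 2.00-fold and 6.10-fold in knockout muscle, with no overlap of denervated and control samples. Fat cells also carry Gpd1 and Slc2a4, and the summed intensity of 5 kept adipocyte markers of 7 was 3718 to 5402 in control and 2291 to 2628 in denervated wild type muscle of day 3, with Cfd and Retn not kept. It was 1966 to 6016 and 1345 to 1863 in wild type muscle of day 14. In knockout muscle it was 4508 to 9079 and 3385 to 3946 on day 3, and 3340 to 4441 and 2833 to 3184 on day 14. Of the 5, 2 and 3 were called lower in wild type muscle of days 3 and 14 and 2 and 0 in knockout muscle. Their part in these falls was not tested. Gpd2, the mitochondrial partner, was called lower in wild type muscle of day 3 (1.52-fold) and knockout muscle of day 14 (1.60-fold). Each of these calls was lost without any 1 of several arrays, 5 and 4 of 6, with adjusted p up to 0.146 and 0.0998.

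Of 5 genes of glycogen breakdown, 3 were called lower in wild type muscle on each day and 2 and 4 in knockout muscle of days 3 and 14, and none higher. Pygm, the muscle glycogen phosphorylase, read 13.54, 13.22 and 13.59 in wild type controls of day 3 and 12.11, 11.83 and 11.82 after denervation, and 13.93, 13.92 and 13.66 and 11.76, 11.98 and 12.14 on day 14. In knockout muscle it read 13.14, 13.33 and 13.67 and 12.23, 12.65 and 12.93 on day 3 and 13.90, 13.79 and 13.74 and 12.61, 12.17 and 12.33 on day 14. Denervated samples lay below controls throughout, by 2.89-fold and 3.67-fold in wild type and 1.71-fold and 2.71-fold in knockout muscle. Pygb, the brain phosphorylase, was called in none of the 4 comparisons (log2 -0.52 to -0.09).

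Phkg1, the catalytic subunit of muscle phosphorylase kinase, read 13.01, 12.87 and 12.88 in wild type controls of day 3 and 10.95, 10.80 and 10.46 after denervation, and 13.82, 13.49 and 13.61 and 11.99, 11.79 and 11.73 on day 14. The falls were 4.53-fold (log2 -2.18 ± 0.19; adjusted p = 8.16e-09) and 3.50-fold (-1.81 ± 0.19; adjusted p = 1.07e-07). In knockout muscle it read 12.69, 12.55 and 13.02 and 11.50, 12.23 and 12.36 on day 3 and 13.66, 13.62 and 13.51 and 11.52, 11.15 and 11.37 on day 14, falls of 1.66-fold and 4.76-fold. Denervated and control samples did not overlap.

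The regulatory subunits of phosphorylase kinase moved less evenly. Phka1, the alpha subunit of muscle, fell on day 14 in wild type (11.69, 11.54 and 11.45 to 10.74, 10.74 and 10.54) and knockout muscle (11.92, 11.99 and 11.75 to 11.01, 10.67 and 11.18), by 1.85-fold and 1.90-fold. On day 3 it was not called, and the knockout denervated values of 10.996, 11.56 and 12.23 spread around controls of 11.001, 11.15 and 11.39. Phkb, the beta subunit, fell in wild type muscle of day 3 (1.74-fold, adjusted p = 0.0159) and knockout muscle of day 14 (1.94-fold, adjusted p = 0.00486) and was not called in the other two. The first of these calls was lost without control wild type replicate 2 or denervated wild type replicate 3 (adjusted p up to 0.0665).

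Of the 6 genes of glycogen synthesis, 3 and 5 were called lower in wild type muscle of days 3 and 14 and 1 and 2 in knockout muscle, and the branching enzyme Gbe1 was called higher in all but knockout muscle of day 14. Gbe1 read 6.65, 6.67 and 7.10 in wild type controls of day 3 and 7.98, 7.72 and 7.98 after denervation, and 7.63, 6.67 and 7.99 and 8.29, 8.45 and 8.48 on day 14. It read 7.001, 6.50 and 6.64 and 7.71, 7.23 and 8.29 in knockout muscle of day 3 and 7.57, 6.38 and 8.35 and 7.53, 8.45 and 7.63 on day 14, where the groups overlapped. The rises were 2.12-fold, 1.97-fold and 2.05-fold, with adjusted p-values of 0.0302, 0.0462 and 0.0397. Each missed the threshold without any 1 of 4 or 5 of its 6 arrays (adjusted p up to 0.264), and the knockout change of day 3 was 0.9997 with an adjusted p of 0.229 without the 2 arrays that stood apart.

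Ppp1r3c, a subunit that brings protein phosphatase 1 to glycogen and favours synthesis, fell in all 4 comparisons. It read 13.54, 13.88 and 13.70 in wild type controls of day 3 and 13.09, 13.03 and 12.66 after denervation, and 14.17, 14.68 and 14.41 and 13.85, 13.75 and 13.74 on day 14. In knockout muscle it read 14.08, 13.74 and 14.67 and 12.96, 13.17 and 13.24 on day 3 and 14.99, 15.06 and 15.16 and 13.81, 13.45 and 13.90 on day 14. The falls were 1.72-fold, 1.56-fold, 2.06-fold and 2.55-fold in that order. The wild type fall of day 14 missed the threshold without control wild type replicate 2 (adjusted p = 0.0624).

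Gys1, the muscle glycogen synthase, fell in wild type muscle on both days (1.97-fold and 1.71-fold, adjusted p = 0.00234 and 0.0115) and was not called in knockout muscle (log2 -0.56 and -0.48). The day 14 call was lost without control replicate 2 or denervated replicate 1 (adjusted p up to 0.0618). Pgm1, a phosphoglucomutase, fell in wild type muscle of days 3 and 14 (log2 -0.50 and -0.39). The day 14 call was lost without any 1 of its 6 arrays (adjusted p up to 0.117), and the day 3 call without denervated wild type replicate 3 (0.0564). Glycogenin, Gyg, the primer of glycogen, fell in wild type muscle of day 14 from 11.89, 11.93 and 11.25 to 10.35, 10.25 and 10.33, 2.60-fold with an adjusted p of 8.05e-07, and was called in no other denervated group. Ugp2, which makes UDP-glucose, fell on day 14 in wild type (12.88, 12.67 and 12.73 to 11.94, 11.88 and 11.61) and knockout muscle (13.12, 13.32 and 13.15 to 12.51, 12.13 and 12.35), by 1.94-fold and 1.82-fold. In knockout muscle of day 3 it rose 1.46-fold, with overlapping values of 12.32, 12.17 and 12.56 and 12.54, 12.91 and 13.23, a call lost without control replicate 2 or denervated replicate 3 (adjusted p up to 0.0948) and without both arrays that stood apart (0.19, adjusted p = 0.582).

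Several of the probes read near the top of the arrays' scale, where the brightest probe had 65940 to 72108 intensity units. As a share of the brightest probe of the same array, raw Gapdh intensity was 95.3 to 100%, that of Aldoa 79.8 to 99.7% and that of Pgam2 57.7 to 99.4%. The Eno3, Ldha, Tpi1 and Gpd1 probes passed 50% of the top on 13, 12, 12 and 7 of 24 arrays. So did the Pfkm probe used, on 21 arrays, the Pgm1 probe, on 22, and the Ppp1r3c probe, on 3. Whether probes near the top understate a change was not tested.

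**Figure D3:**
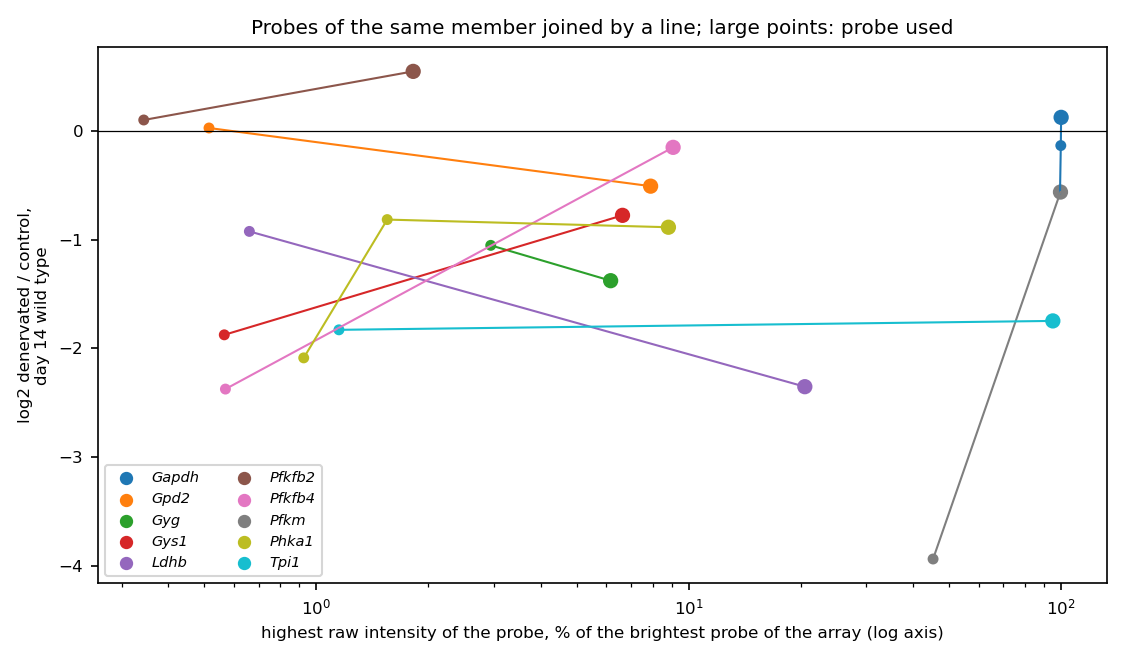
Log2 change from control to denervated wild type muscle of day 14 (y axis) against the highest raw intensity of the probe as a percent of the brightest probe of its array (x axis, log scale), for the 10 genes with several kept probes. Lines join probes of a gene and large points are the probes used, so that the Pfkm line runs from -3.94 at 45.3% to -0.56 at 99.6%.

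Other kept probes of a gene also differed in size. A second Pfkfb4 probe changed by -2.37 in wild type muscle of day 14, where the probe used gave -0.15. A second Gys1 probe changed by -1.54 and -1.88 in wild type muscle of days 3 and 14, beside -0.98 and -0.78. For Gyg the second probe gave -1.05 on day 14 beside -1.38. The probes' target isoforms were not analysed here.

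Knockout and wild type muscle were then compared directly after denervation. On day 3, 10 of 33 genes were higher in knockout than in wild type denervated muscle and 0 lower, 30.3% against 7.17% of all genes (3.78% higher, 3.38% lower). They were Slc2a1, Pfkm, Tpi1, Pfkfb3, Eno3, Ldha, Gpd1, Pygm, Phkg1 and Ugp2, with all 3 knockout samples above all 3 wild type samples for each. Over the 33 genes such a gap upwards was seen for 13, against 13% of all genes, and downwards for 1, against 11.8%. The largest differences were those of Phkg1, 2.44-fold (log2 1.29 ± 0.19; adjusted p = 3.90e-04), Pfkfb3, 2.20-fold (1.14 ± 0.32; 0.0373), and Gpd1, 2.08-fold (1.06 ± 0.14; 1.86e-04). The other seven differed by 1.38-fold to 1.60-fold. Ugp2 read 12.54, 12.91 and 13.23 in knockout and 12.52, 12.42 and 12.13 in wild type denervated muscle.

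The count depended on single arrays. Replicates 2 and 3 of denervated knockout muscle of day 3, which detected more probes than the other day 3 arrays, read higher than replicate 1 for all 10 genes. Without both, limma called 0 of 33 genes, and 5 had an unadjusted p under 0.05; replicate 1 is then the lone sample of its group and is taken to vary like the other groups. The difference of Gpd1 was then 0.78 (adjusted p = 0.114), that of Phkg1 0.76 (0.245) and that of Pfkfb3 0.88 (0.70). Without replicate 3 alone 3 genes were called, without replicate 2 alone 4 and without replicate 1 alone 16. Leaving out wild type denervated replicate 2 or 3 left 5 and 4. With 1 array left out at a time, 7 of the 10 calls were lost at least once, and those of Ldha, Gpd1 and Phkg1 were not. With a second Tpi1 probe in place of the one used, the Tpi1 difference was -0.09 (adjusted p = 0.783).

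The summed intensity of the 10 fibre markers was 293000 to 321000 in wild type and 333600 to 376700 in knockout denervated muscle of day 3, and that of the leukocyte markers 32380 to 38740 and 19790 to 39040. Their part in the genotype difference was not tested.

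**Figure D4:**
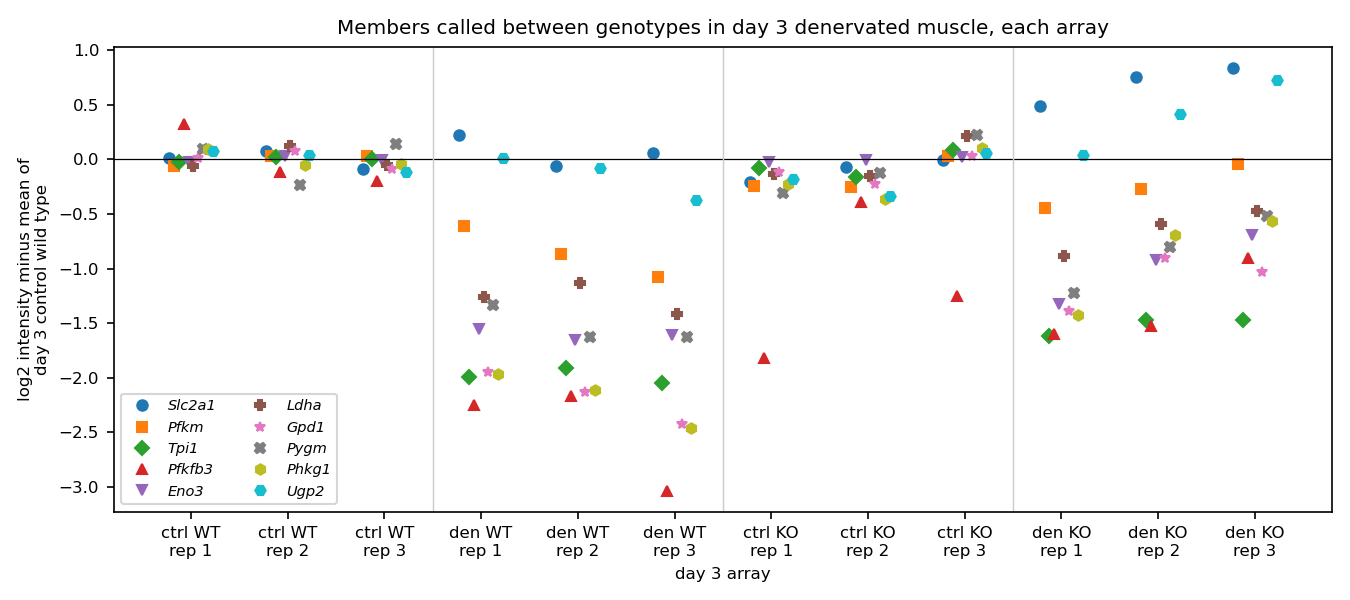
Log2 intensity on each of the 12 day 3 arrays (x axis) minus the mean of the 3 control wild type arrays (y axis), for the 10 genes called higher in denervated knockout than in denervated wild type muscle. All 10 genes lie higher on denervated knockout (den KO) replicates 2 and 3 than on replicate 1, and the 3 control knockout (ctrl KO) arrays of Pfkfb3 lie below 0.

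A test of whether denervation acted differently by genotype called 3 of 33 genes on day 3, against 1.08% of all genes (0.645% positive, 0.433% negative), each with a smaller fall in knockout muscle. The log2 difference between the changes was 1.16 ± 0.20 for Gpd1 (adjusted p = 0.00700), 1.45 ± 0.26 for Phkg1 (0.0101) and 2.30 ± 0.46 for Pfkfb3 (0.0213). Pfkfb3 controls of day 3 read 11.61 to 12.13 in wild type and 9.99 to 11.42 in knockout muscle. Its call was lost without any 1 of 4 of 12 arrays (adjusted p up to 0.0798). Without the 2 arrays that stood apart, limma called 0, with 7 at an unadjusted p under 0.05, and the values were 0.88, 0.92 and 2.04 for Gpd1, Phkg1 and Pfkfb3 (adjusted p = 0.224, 0.307 and 0.307). Without denervated knockout replicate 1 the count was 11, and without control knockout replicate 3 it was 7. Fitted to the day 3 arrays alone, the model called 0, with 13 at an unadjusted p under 0.05.

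On day 14, 3 of 33 genes differed between genotypes in denervated muscle, 2 higher and 1 lower in the knockout, against 6.92% of all genes (2.7% higher, 4.21% lower). Groups did not overlap for 6 genes higher and 7 lower in the knockout, against 13.4% and 16.7% of all genes. Slc2a1 was higher in knockout muscle by 1.67-fold (adjusted p = 0.0157) and Gyg by 1.52-fold (10.85, 11.08 and 10.82 against 10.35, 10.25 and 10.33; adjusted p = 0.0312). Pfkfb2 was lower by 1.48-fold (adjusted p = 0.0231). The counts without 1 array were 0 to 3, with 0 without replicate 3 of either genotype, where 11 (wild type) and 9 (knockout) genes had an unadjusted p under 0.05. They were 1 without replicate 2 of either.

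In all, 4 genes changed differently with denervation in the 2 genotypes on day 14, against 12.5% of all genes (4.58% positive, 7.93% negative). The Slc2a4 difference of 1.60 ± 0.27 (adjusted p = 0.00127) went with controls of 12.002 to 12.55 in wild type and 11.03 to 11.26 in knockout muscle and denervated values of 9.60 to 9.85 and 10.08 to 10.12. The Gyg difference of 1.27 ± 0.23 (adjusted p = 0.00234) went with controls of 11.25 to 11.93 and 10.94 to 11.08. Hk2 (-0.67 ± 0.19; adjusted p = 0.0252) and Pfkfb2 (-1.08 ± 0.20; 0.00275) went the other way, with knockout controls of 14.40 to 14.63 and 9.74 to 9.87 above wild type controls of 14.05 to 14.16 and 9.22 to 9.36. The Hk2 call was lost without any 1 of 4 of 12 arrays (adjusted p up to 0.0766).

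**Figure D5:**
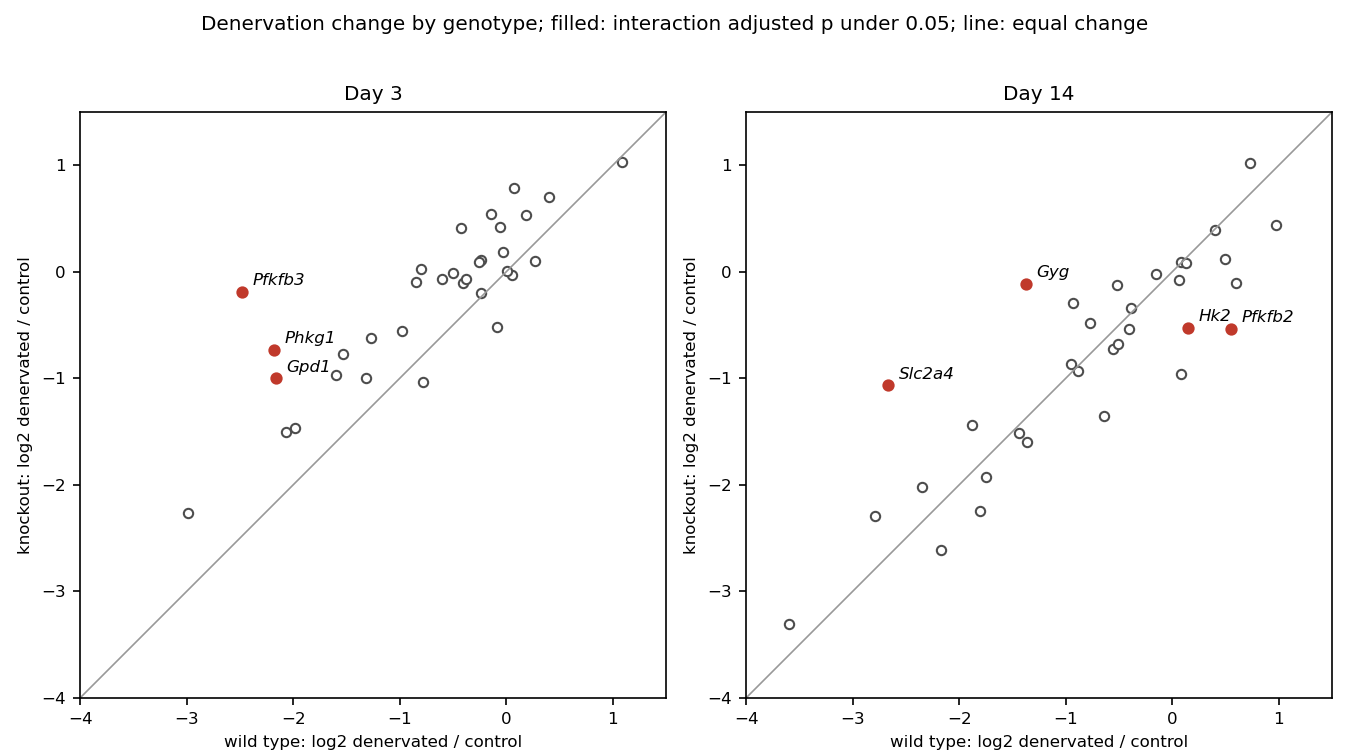
Log2 change from control to denervated muscle in knockout (y axis) against wild type (x axis) for the 33 genes on day 3 and day 14, with a line of equal change. Filled points are called for the interaction: Pfkfb3, Phkg1 and Gpd1 on day 3, above the line, and Slc2a4 and Gyg above it and Hk2 and Pfkfb2 below it on day 14.

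In control muscle of both days together, 4 of 33 genes differed by genotype, against 3.3% of all genes (1.57% higher, 1.72% lower in the knockout). Slc2a4, Ldhb and Gyg were lower in knockout muscle by 1.45-fold, 1.40-fold and 1.41-fold, and Ppp1r3c was higher by 1.47-fold, with adjusted p-values of 0.0229 to 0.0285. For Slc2a4 only day 14 went this way, with control means of 12.35 in wild type and 11.15 in knockout muscle. Its control means of day 3 were 11.44 and 11.56. Every one of these calls was lost without any 1 of 5 to 8 of 12 arrays, with adjusted p up to 0.0745. Without control wild type replicate 3 of day 3 the count was 0, with 7 at an unadjusted p under 0.05. It was 1 without day 14 control wild type replicate 1 or 2 or control knockout replicate 3, and 2 without day 3 control wild type replicate 1, day 3 control knockout replicate 1 or 2, or day 14 control wild type replicate 3.

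The change with denervation was also compared between days, which were separate sets of samples. In wild type muscle it differed for 6 of 33 genes, against 13.7% of all genes (7.46% positive, 6.2% negative). Slc2a4 (-1.35 ± 0.27), Fbp2 (-1.53 ± 0.32), Gyg (-0.999 ± 0.23) and Ugp2 (-0.81 ± 0.23) were lower on day 14 relative to their controls than on day 3, and Pfkfb2 (0.96 ± 0.20) and Pfkl (0.75 ± 0.19) were higher. Adjusted p-values were 0.00201 to 0.0220, and the Ugp2 call was lost without any 1 of 5 of 12 arrays (up to 0.0640). With median centring the count was 4, all lower.

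In knockout muscle the change differed for 11 of 33 genes, against 20.6% of all genes (9.12% positive, 11.5% negative), and all 11 were lower on day 14. The largest were Pfkfb3 (-2.11 ± 0.46; adjusted p = 0.00417), Fbp2 (-1.80 ± 0.32; 0.00111), Gpd1 (-1.61 ± 0.20; 6.95e-05) and Phkg1 (-1.52 ± 0.26; 9.15e-04). Ugp2, Phka1 and Hk2 followed with -1.41, -1.34 and -1.23, and Ldha, Pfkm, Eno3 and Tpi1 with -0.89 to -0.47. Without the 2 day 3 arrays that stood apart, a lone denervated knockout sample of day 3 is left. The values were then -1.92 for Fbp2, -1.85 for Pfkfb3, -1.33 for Gpd1, -1.05 for Ugp2 and -0.93 for Hk2. Those of the rest were -0.99 to -0.28. With median centring, which moved the median of all genes by -0.483, 23 were called, all lower.

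Control muscle itself differed between days for 14 of 33 genes, 13 higher and 1 lower on day 14, a share of 42.4% beside 41.4% of all genes (23.5% higher, 17.9% lower). The largest differences were Ppp1r3c (0.81 ± 0.13), Phkg1 (0.78 ± 0.13) and Phkb (0.73 ± 0.18), and Gyg was lower (-0.33 ± 0.12). Control mice had no operation on either day. With median centring, which moved the median of all genes by 0.351, 29 were higher and Gyg turned to 0.21 (adjusted p = 0.170).

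Other genes of the pathway and its control were counted from a separate list of 58, of which 41 had a kept probe. In wild type muscle 16 of 41 were called on day 3 (6 higher, 10 lower) and 21 on day 14 (8 and 13). In knockout muscle 14 were called on day 3 (5 and 9) and 23 on day 14 (8 and 15). The shares were 39%, 51.2%, 34.1% and 56.1%, beside 37.5%, 41.5%, 35.8% and 36.7% of all genes, and the medians lay between -0.16 and -0.02. For this list, the results of day 3 knockout muscle are given only with both arrays that stood apart.

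Of these genes, Stbd1, which ties glycogen to membranes, rose in all 4 comparisons, with log2 changes of 1.93 and 1.68 in wild type and 1.98 and 1.04 in knockout muscle of days 3 and 14. It read 11.52, 11.32 and 11.41 in wild type controls of day 3 and 13.51, 13.33 and 13.18 after denervation. Slc37a4, the transporter of glucose phosphate into the endoplasmic reticulum, fell 6.21-fold and 3.11-fold in wild type and 3.85-fold and 5.37-fold in knockout muscle. Mdh1, the cytosolic malate dehydrogenase, fell 3.42-fold, 3.53-fold, 3.26-fold and 3.18-fold in the same order. Tbc1d1, which governs GLUT4 traffic, rose 3.87-fold and 5.43-fold in wild type and 2.73-fold and 1.99-fold in knockout muscle. All of these passed at adjusted p-values of at most 0.0113. Tbc1d1 controls of days 3 and 14 read 9.29 to 9.78 and 9.38 to 10.48 in wild type muscle. In knockout muscle they read 9.98 to 10.82 and 10.51 to 11.24. Its denervated samples read 11.22 to 11.70 and 12.10 to 12.36 in wild type and 11.30 to 12.28 and 11.78 to 12.16 in knockout muscle.

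Subunits of AMP-activated protein kinase, the cell's energy sensor, also changed. Prkag3, its gamma subunit of fast muscle, fell 2.56-fold in wild type and 1.70-fold in knockout muscle of day 3 and was not called on day 14. Prkaa2, its catalytic alpha subunit of muscle, fell 3.28-fold in wild type and 2.46-fold in knockout muscle of day 14 and was not called on day 3. Prkaa2 also differed between the controls of the 2 days. Wild type and knockout controls read 10.75 to 11.25 and 10.58 to 11.36 on day 3, and 8.81 to 9.09 and 9.38 to 9.47 on day 14. Txnip, which lowers glucose uptake, fell 2.36-fold and 2.82-fold on day 14 in wild type and knockout muscle. Phka2, the liver alpha subunit of phosphorylase kinase, rose 2.64-fold in wild type muscle of day 3. Bpgm, an enzyme known from red cells, fell 2.26-fold and 2.56-fold in wild type muscle of days 3 and 14 and 3.08-fold in knockout muscle of day 14. The size of these Bpgm falls is uncertain. Its denervated values there were 4.89 to 5.07, 5.25 to 5.54 and 4.94 to 5.44, as low as Trim63 on knockout arrays (4.83 to 5.86). The remaining genes past 2-fold after denervation were Arrdc4 (log2 1.14, wild type day 3), Rpia (-1.03, wild type day 14), and Tigar and Mlxipl (-1.10 and -1.23, knockout day 14).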

How the data were processed

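The 24 arrays were 1-colour Illumina mouse bead arrays. Per the file headers, the authors deposited a non-normalized intensity and a detection p-value for each of 46632 probes. BeadStudio 3.2.3 is named in the submitters' processing notes. A second deposited table holds processed intensity values, which follow the raw ranks on each array and have array medians of 13.16 to 13.45; their processing steps are not given in the sources used here. The neqc function of limma 3.58.1 (R 4.3.3, offset 16) estimated background from the detection p-values, subtracted it, and quantile-normalized the arrays on the log2 scale. Probes with detection p under 0.05 on at least 3 of 24 arrays were kept (21997). Of the kept probes, 16314 had 1 gene name in GEO's platform annotation, which can be old. The kept probe with the highest mean stood for its gene (11317 genes).

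One limma model held 8 group means (16 residual degrees of freedom). It gave 12 comparisons with two-sided moderated tests and Benjamini-Hochberg adjustment over all genes, called under 0.05. The ± values are standard errors (median 0.19 between 2 groups and 0.268 for an interaction). Correlations between replicate arrays were 0.9741 to 0.9928. The code was tested on simulated data.

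The members and lists were chosen with earlier results of these data known. Values in every sample are given for the 6 members with the largest called change in each denervation comparison, those called between genotypes or in an interaction, and those that differ in direction from another isoform. Of the other pathway genes, those called at 2-fold or more in a denervation comparison are named.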

Additional observations from a re-analysis of the deposited data

Results flagged for a closer look

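The changes with denervation that differed between genotypes or between days, by a test of the difference itself (limma interaction terms, adjusted over all genes), are collected here as log2 differences. Between genotypes on day 3 (knockout minus wild type) they were 2.30 for Pfkfb3, 1.16 for Gpd1 and 1.45 for Phkg1, with adjusted p-values of 0.0213, 0.00700 and 0.0101. On day 14 they were 1.60 for Slc2a4, 1.27 for Gyg, -0.67 for Hk2 and -1.08 for Pfkfb2, with adjusted p-values of 0.00127, 0.00234, 0.0252 and 0.00275.

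Between days in wild type muscle (day 14 minus day 3) the differences were -1.35 for Slc2a4, -1.53 for Fbp2, -0.999 for Gyg, -0.81 for Ugp2, 0.75 for Pfkl and 0.96 for Pfkfb2. In knockout muscle they were -2.11 for Pfkfb3, -1.80 for Fbp2, -1.61 for Gpd1, -1.52 for Phkg1, -1.41 for Ugp2, -1.34 for Phka1 and -1.23 for Hk2. Smaller ones were those of Ldha (-0.89), Pfkm (-0.63), Eno3 (-0.62) and Tpi1 (-0.47). The day 3 differences and those between days in knockout muscle use the 2 day 3 arrays with the most detected probes among arrays of that day. Without both, a lone denervated knockout sample of day 3 is left. The day 3 differences were then 2.04, 0.88 and 0.92 for Pfkfb3, Gpd1 and Phkg1. Those between days in knockout muscle were -1.92 (Fbp2) to -0.28 (Eno3).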

How the results depend on the processing

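The counts of called genes after denervation stayed within 1.5 times under all alternatives run, and their ranges without 1 array were 14 to 17 and 19 to 23 in wild type muscle of days 3 and 14 and 13 to 15 and 19 to 21 in knockout muscle. Counts between genotypes were 3 to 16 in denervated muscle of day 3, 0 to 3 on day 14 and 0 to 5 in control muscle without 1 array. The genotype interactions gave 2 to 11 and 3 to 5, the day interactions 5 to 8 in wild type and 8 to 15 in knockout muscle, and control muscle between days 11 to 17. With median centring, denervated muscle of day 14 gave 0 between genotypes (7 at an unadjusted p under 0.05), control muscle 1 (split 1 higher and 3 lower before), the knockout day interaction 23 and control muscle between days 29. A larger offset of 50 gave 5 for the day 3 interaction. Only that day's arrays gave 2 between genotypes on day 3, 0 for the day 3 interaction (13 unadjusted) and 5 between genotypes on day 14. Without the 2 day 3 arrays with most detected probes of that day, the counts were 0 (5 unadjusted) between genotypes on day 3, 0 (7 unadjusted) for the day 3 interaction and 4 for the knockout day interaction. Leaving out probes over 50% of the array maximum, an alternative chosen after seeing the data, left 25 genes, with 5 called between genotypes on day 3 and 7 for the knockout day interaction. Values that changed sign were Gyg between days in control muscle with median centring (0.21, adjusted p = 0.170), Pfkfb2 in wild type muscle of day 3 as a mean of probes (0.0192, adjusted p = 0.925) and Tpi1 between genotypes on day 3 without bright probes (-0.088, adjusted p = 0.783). Of 1170 values of called genes under other settings, 1071 kept direction and call, 96 lost the call and 3 changed sign; of 1050 without 1 array, 878 kept both and 172 lost the call. The cause of these changes was not tested. Same-numbered samples mostly did not deviate together (correlations of -0.287 to 0.388, 1 of 36 over 0.1, beside 9 of 72 for different numbers). With 3 arrays a group this cannot exclude that the numbers pair the samples, and the model treated them as unpaired. A replicate block gave 7 for control muscle between days and counts within 1.5 times for the others. Signal near the top of the scale and 3 arrays a group limit the precision.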
